A study of Homo sapiens with 4 samples.

Results

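Keratins are the intermediate filament proteins of epithelial cells, and they work in pairs: 1 acidic type I keratin and 1 basic type II keratin wind around each other, and neither forms a filament alone. Basal keratinocytes use KRT5 with KRT14. Cells that leave the basal layer of the epidermis switch to KRT1 with KRT10, to which KRT2 is added in the upper layers, whereas the wet stratified epithelia of the mouth and oesophagus use KRT4 with KRT13. The 6 genes described here are these suprabasal and mucosal keratins: the type I genes KRT10 and KRT13 and the type II genes KRT1, KRT2, KRT4 and KRT78. They were chosen by name, with earlier results of these data known, and all 6 are among the 29209 genes of the deposited tables.

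HaCaT, an established human keratinocyte line that became immortal in culture without an added oncogene, supplied the RNA. A line transduced with lentivirus to overexpress TCN1, the gene of a secreted vitamin B12-binding protein, was compared with a negative control line to find which genes differ, and the groups are called TCN1_OE and NC below, with 2 libraries each. Cells were taken for polyA RNA-seq after 48 h, per the labels' protocols. The sources used here do not give what the control line carries, which promoter drives TCN1 or whether a line is 1 clone. Separate cultures are not stated for libraries of the same line. The edgeR p-values therefore set a difference between the lines only against the spread of these libraries, estimated with information shared over genes. That spread may be technical.

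The libraries held between 11593377 and 19973550 counts. TCN1 itself had 50 and 17 counts in NC and 1700 and 1253 in TCN1_OE, so the libraries match their labels. The keratinocyte markers fixed for the check were all present, with KRT5 and KRT14 at 2125 ± 120 and 3250 ± 217 FPKM in NC, where FPKM is the count scaled to gene length and library total and ± is the SD over 2 libraries. Summed FPKM of the listed markers of other cell types lay between 1.86 and 2.12 in NC and between 1.82 and 2.05 in TCN1_OE for fibroblasts (3 genes), and between 2.66 and 2.69 against 2.86 and 3.06 for melanocytes (5 genes). For immune cells (5 genes) the sums were 0.0462 to 0.213 against 0.124 to 0.260, and for endothelium (2 genes) 0.877 to 1.28 against 0.947 to 1.36. The lists fixed for the check held 6, 6, 6 and 4 genes in that order, and the rest of these genes have no entry in the deposited data. All 29209 genes with an entry had a count in at least 1 library, so no marker summed here could be at 0 in all 4. The melanocyte gene TYRP1 was at 0 in 3 libraries, DCT in 3, and the pan-leukocyte gene PTPRC in both NC libraries.

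All 6 genes code for a central rod that ends in a strongly conserved stretch, and the bases that code for it are shown here. The stretch was located by residues common to all 6, which fixes part of the match in advance. These 24 bases of each coding sequence, 5′ to 3′ from the GENCODE release 29 transcripts, carry the fourth codon of the stretch in capitals.
KRT10 (type I): acctaccgcAGCctgctagaagga
KRT13 (type I): acctaccgcAGCctgctcgagggc
KRT1 (type II): acctacaggACCctcctggaggga
KRT2 (type II): acctaccgcAAActgctggagggc
KRT4 (type II): acctaccgcAAActgctggagggc
KRT78 (type II): acttaccgcAGGctgctggagggc
Both type I genes share 1 codon at the capitals, and the 4 type II genes hold 3 others. KRT2 and KRT4 match at all 24 bases, and KRT1 and KRT78 match at 17. Pairs of different types match at 18 to 21, within that range, so the number of matching bases does not separate the types. Over the whole coding sequence, identity at aligned bases ran from 68.5% to 75.4% in the 7 pairs of the same type and from 58.1% to 64.4% in the 8 pairs of different types. The partners KRT1 and KRT10 were 61.9% identical, and KRT4 and KRT13 61.8%, so reads of 1 partner are unlike those of the other.

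KRT1, KRT10, KRT4 and KRT13 were all higher in TCN1_OE, while KRT2 and KRT78 were barely detected in either line. KRT10 rose 1.80-fold, KRT1 1.70-fold, KRT13 1.47-fold and KRT4 1.43-fold. Among 15113 genes tested with edgeR's quasi-likelihood test on the counts, 0.285% were called higher and 0.212% lower at an adjusted p under 0.05. Of the 6 members, 4 were called higher and 0 lower, 1 was tested without being called and 1 had too few counts for the test. Because earlier results were known when the members were chosen, this count beside those shares is a description only. In the 4 called members the 2 TCN1_OE libraries lay above both NC libraries, as did those of 21.7% of all genes tested. In bulk RNA, more cells that express a gene and more RNA of it per cell cannot be told apart. The share of counts from mitochondrially encoded genes, which also depends on RNA quality, was 5.33% and 5.13% in NC and 6.04% and 5.65% in TCN1_OE, and its part in these differences was not tested.

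**Figure D1:**
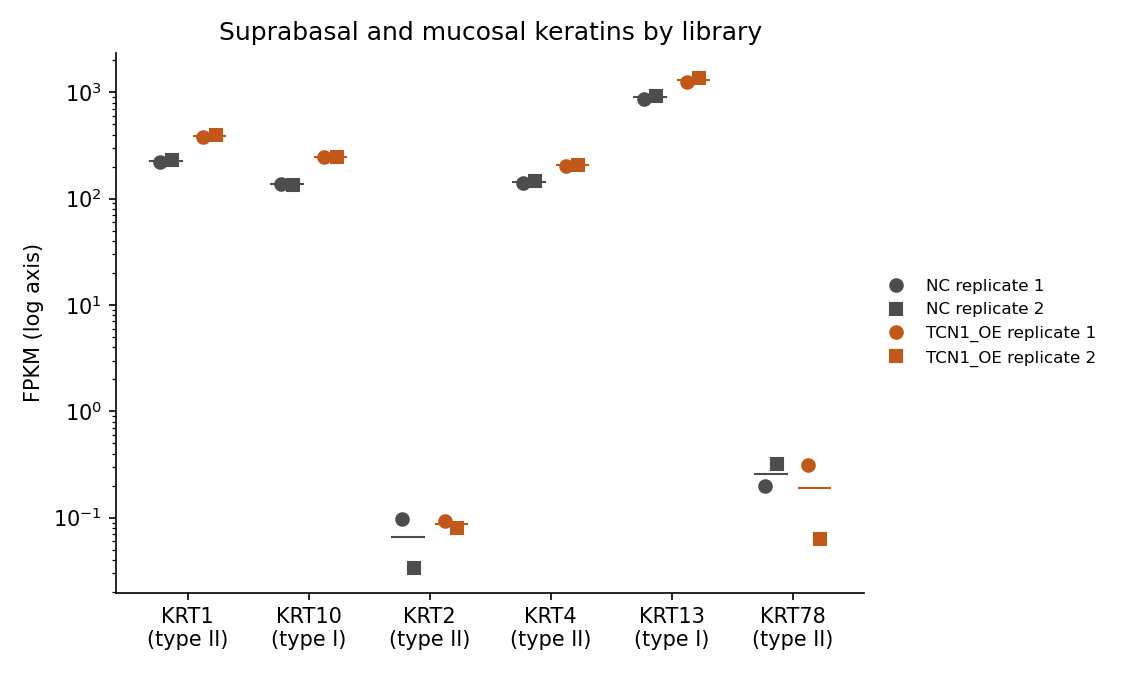
FPKM of the 6 keratins on a log axis in each of the 4 libraries (points) with the mean of each line (bars). KRT1, KRT10, KRT4 and KRT13 sit above 100 FPKM with both TCN1_OE libraries over both NC libraries, and KRT2 and KRT78 sit below 1 FPKM with overlapping groups.

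KRT10 (ENSG00000186395, GRCh38 chromosome 17, 40818117 to 40822595, minus strand) is the type I keratin of the spinous layer and the partner of KRT1. Its level was 137.5 and 134.1 FPKM in NC and 245.1 and 244.0 FPKM in TCN1_OE, from 5940 and 3364 counts against 8794 and 7788. The libraries of each line were close together and the lines did not overlap. The log2 fold change was 0.84 ± 0.08 (SE), with a 95% interval of 0.66 to 1.02 and an edgeR adjusted p of 0.0038. It ranked 5 by p among all genes tested and 23 by size among the 43 called higher. The antisense gene KRT10-AS1 overlaps it, and reads of the partners cannot be told apart where they overlap because the library kit named in the labels does not mark strand. That gene had 501 and 293 counts in NC and 480 and 393 in TCN1_OE, at a log2 fold change of 0.14 ± 0.13 (edgeR adjusted p = 0.703). In GENCODE release 29, where it is named TMEM99, it covers 2.61% of the exonic bases of KRT10.

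The RefSeq promoter table (GRCh38.p14) held KRT10, KRT2 and KRT4 of the 6 members, and the KRT4 window is left out because all its bases are exonic in GENCODE release 29. The 250 bases before the start of KRT10, the member with the largest rise, are shown here beside those of KRT2, which takes the same partner and was almost silent. Capitals mark matches on either strand to TATAAA of the TATA box, to TGANTCA bound by AP-1, to GGGCGG bound by Sp1 or to CCAAT of the CCAAT box, and no matches overlap.
KRT10, chr17:40822615-40822864, minus strand: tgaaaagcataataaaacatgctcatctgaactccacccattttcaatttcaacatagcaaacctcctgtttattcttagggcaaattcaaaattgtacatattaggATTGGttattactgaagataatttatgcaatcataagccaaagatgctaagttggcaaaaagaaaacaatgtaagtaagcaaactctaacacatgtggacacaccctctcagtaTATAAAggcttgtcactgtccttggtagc
KRT2, chr12:52652212-52652461, minus strand: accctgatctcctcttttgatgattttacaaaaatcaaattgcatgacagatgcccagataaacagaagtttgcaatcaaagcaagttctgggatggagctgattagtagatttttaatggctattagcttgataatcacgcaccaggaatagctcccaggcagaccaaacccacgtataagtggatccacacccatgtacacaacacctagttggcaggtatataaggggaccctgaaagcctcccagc
KRT10 held TATAAA at bases -29 to -24 from the start and CCAAT on the other strand at -143 to -139. These exact letters were not in the KRT2 window, and the AP-1 and Sp1 letters were in neither. The KRT2 window does hold tatataa near its end, a string that the search for TATAAA does not cover. The lack of a match therefore does not show that KRT2 is without a TATA box. Among 35093 promoter windows of the same length, 10.7% held the TATA box letters, 32.0% those of the CCAAT box, 6.57% those of AP-1 and 42.6% those of Sp1. G and C made up 34.8% of the KRT10 window and 43.6% of the KRT2 window.

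KRT1 (ENSG00000167768, chromosome 12, 52674736 to 52680407, minus strand) is the type II partner of KRT10. It stood at 222.7 and 229.0 FPKM in NC and at 376.3 and 394.2 FPKM in TCN1_OE, from 11067 and 6606 counts against 15528 and 14474. Both TCN1_OE libraries lay well above the NC range. The log2 fold change was 0.77 ± 0.08, with a 95% interval of 0.58 to 0.95 and an edgeR adjusted p of 0.0071. None of its exonic bases lies under another annotated gene, and none of its 50-base stretches occurs in a transcript of another gene.

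The mucosal pair rose too, with smaller fold changes. KRT13 (ENSG00000171401, chromosome 17, 41500981 to 41505705, minus strand), the type I keratin of wet stratified epithelia, was the most abundant member. Its level was 857.3 and 929.5 FPKM in NC and 1249 and 1376 FPKM in TCN1_OE, from 49879 and 31391 counts against 60360 and 59145. The log2 fold change was 0.55 ± 0.09, with a 95% interval of 0.35 to 0.75 and an edgeR adjusted p of 0.0431. In GENCODE release 29, 16.3% of its exonic bases lie under another gene, AC019349.1, which is not analysed here. Of its 50-base stretches, 12.6% also occur on either strand in transcripts of AC019349.1, and 0.561% in those of its neighbour KRT15. The sources used here do not say how the counting treated such shared reads.

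KRT4 (ENSG00000170477, chromosome 12, 52806549 to 52814551, minus strand), the type II partner of KRT13, stood at 138.9 and 147.8 FPKM in NC and at 203.5 and 208.5 FPKM in TCN1_OE. Its counts were 7983 and 4931 against 9711 and 8851, and the lines did not overlap. The log2 fold change was 0.52 ± 0.08, with a 95% interval of 0.33 to 0.71 and an edgeR adjusted p of 0.0431. KRT4 and KRT13 lay near the threshold, ranking 40 and 43 by p among all genes tested. All 4 calls rest on the count test, since limma on log2(FPKM + 0.5) gave the same fold changes but an adjusted p of 0.105 for KRT10, 0.127 for KRT1 and 0.212 for both KRT4 and KRT13. Limma called 0.00662% of all genes higher and 0% lower.

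The 4 members were called under each of the other 11 alternatives, which called more or fewer genes in all. Among these, the replicate block and the fits without 1 library called more genes than the main test, for reasons not tested. They also had less information on spread. Calls under them add little. With other scalings of edgeR, the shares called higher and lower were 0.285% and 0.199% with RLE size factors, 0.457% and 0.417% with library totals alone, and 0.516% and 0.351% with upper-quartile factors. DESeq2 called 0.903% higher and 0.928% lower. A run without a filter on low counts called 0.685% and 0.941%, and one limited to genes averaging 1 FPKM or more called 0.27% and 0.122%. The replicate number as a block gave 8.05% and 11%. Of the NC libraries, leaving out the first gave 0.714% and 0.889%, and leaving out the second 0.785% and 0.65%. For TCN1_OE these shares were 1.18% and 0.737% when the first library was dropped, then 0.64% and 0.721% for the second.

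KRT2 (ENSG00000172867, chromosome 12, 52644558 to 52652164, minus strand), the type II keratin of the upper epidermis, had 5 and 1 counts in NC and 4 and 3 in TCN1_OE. These are 0.0974 and 0.0336 against 0.0939 and 0.0791 FPKM, around the level that 3 counts give for this gene, which was 0.0585 to 0.101 FPKM across the libraries. The ratio of TCN1_OE to NC over the pooled counts was 1.18, with an exact 95% interval of 0.338 to 4.23 that covers counting error only. A difference of KRT2 was thus not detectable at this depth. The gene did not reach the minimum count for edgeR.

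KRT78 (ENSG00000170423, chromosome 12, 52837804 to 52849092, minus strand), a type II keratin for which no single partner is established, was low as well. It had 13 and 12 counts in NC and 17 and 3 in TCN1_OE, or 0.200 and 0.318 against 0.314 and 0.0624 FPKM. The first TCN1_OE library lay between the NC values and the second below both. The log2 fold change was -0.38 ± 0.70, with a 95% interval of -1.95 to 1.2 and an edgeR adjusted p of 0.876. Its sign rests on TCN1_OE replicate 2, without which it was 0.30.

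The order of the members by FPKM differed between the lines at 1 place. In NC it ran from KRT13 through KRT1 (225.9 ± 4.47), KRT4 (143.4 ± 6.30) and KRT10 (135.8 ± 2.36) to KRT78 and KRT2, and KRT4 and KRT10 differed by little more than the spread between libraries. In TCN1_OE KRT10 (244.6 ± 0.787) stood above KRT4 (206.0 ± 3.53), by more than that spread. KRT78 lay above KRT2 in both NC libraries, and the values of these 2 genes overlapped in TCN1_OE. Ranked among all listed genes by mean FPKM, KRT13 went from 17 to 13, KRT1 from 90 to 52, KRT10 from 179 to 86 and KRT4 from 167 to 107. FPKM depends on the gene length used, which for KRT13 was 2913 bp, so levels compared between genes carry that choice.

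Partner ratios differed little between the lines. The ratio of KRT1 to KRT10 in FPKM was 1.62 and 1.71 in NC and 1.54 and 1.62 in TCN1_OE. The log2 ratio differed by -0.08 ± 0.05 (SE) between the lines, against a counting error of 0.02, and lay between -0.12 and -0.04 with 1 library left out. The NC and TCN1_OE ratios did not overlap, but the lowest NC and the highest TCN1_OE value were close to each other. The ratio of KRT4 to KRT13 was 0.162 and 0.159 in NC and 0.163 and 0.152 in TCN1_OE, a difference of -0.03 ± 0.05 in the log2 ratio, with overlapping lines. With 1 library left out this difference lay between -0.08 and 0.02. KRT13 was thus about as far above its type II partner in both lines, whereas in the epidermal pair the type II gene was the higher one. KRT2 to KRT10 was under 0.001 in all 4 libraries and cannot be compared at these counts.

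**Figure D2:**
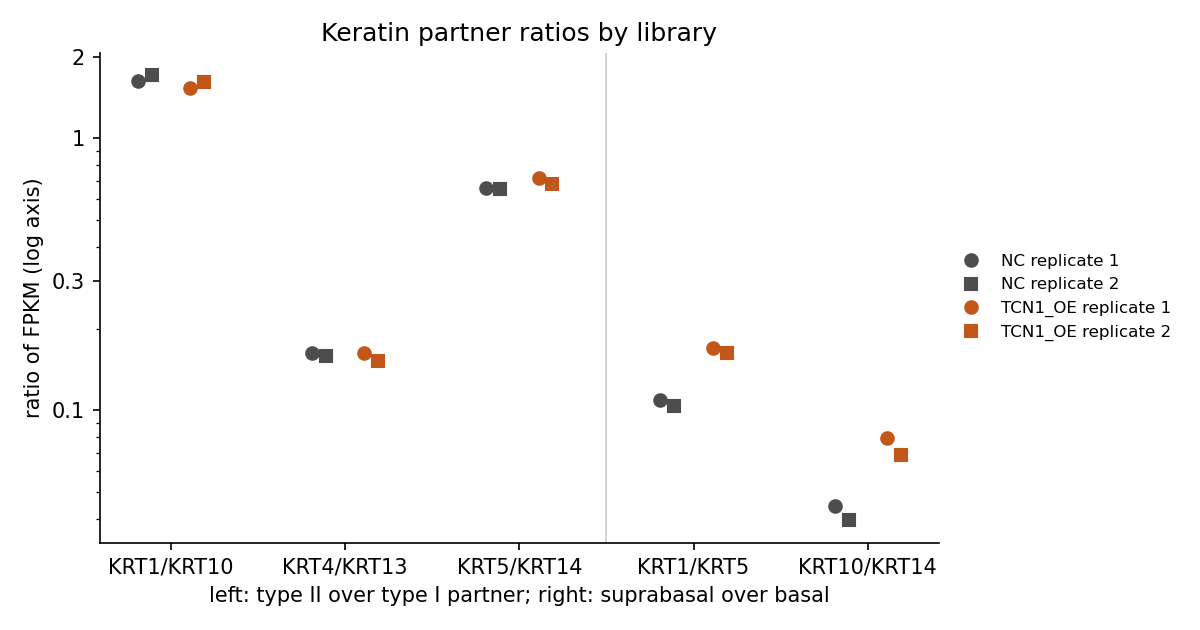
Ratio of FPKM on a log axis in each library for partner pairs (left) and for a suprabasal over a basal keratin of the same type (right). The partner ratios of NC and TCN1_OE lie close together, while KRT1/KRT5 and KRT10/KRT14 are higher in both TCN1_OE libraries than in both NC libraries.

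Set against the basal keratin of the same type, KRT1 and KRT10 stood higher in both TCN1_OE libraries. The ratio of KRT1 to KRT5 was 0.109 and 0.104 in NC and 0.169 and 0.162 in TCN1_OE, a difference of 0.64 ± 0.05 in the log2 ratio. That of KRT10 to KRT14 was 0.0444 and 0.0394 against 0.0788 and 0.0684, a difference of 0.81 ± 0.13. KRT5 and KRT14 themselves had log2 fold changes of 0.13 ± 0.09 (edgeR adjusted p = 0.590) and 0.04 ± 0.10 (edgeR adjusted p = 0.921). Their own ratio was 0.659 and 0.649 in NC and 0.717 and 0.681 in TCN1_OE, a difference of 0.09 ± 0.04. Over the 6 ratios the exact two-sided permutation p was 0.333 for KRT1/KRT10, KRT5/KRT14, KRT1/KRT5 and KRT10/KRT14, the smallest that 2 libraries against 2 allow, or 0.5 after Benjamini-Hochberg adjustment. It was 1 for KRT4/KRT13 and KRT2/KRT10.

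Ratios of the epidermal over the mucosal keratin of each type were higher in both TCN1_OE libraries, in a comparison added after the fold changes were seen. KRT1 over KRT4 was 1.60 and 1.55 in NC and 1.85 and 1.89 in TCN1_OE, a difference of 0.25 ± 0.03 in the log2 ratio. KRT10 over KRT13 was 0.160 and 0.144 against 0.196 and 0.177, a difference of 0.29 ± 0.11. In both ratios the lines did not overlap, and the exact two-sided permutation p was 0.333, again the smallest possible.

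Among the keratins with an entry in the deposited data, the members took a larger share in TCN1_OE. Of 26 other type I keratins looked up, 13 had an entry, and of 22 other type II keratins, 19 did. Over the 15 type I keratins listed, summed FPKM was 6174 and 6824 in NC and 7110 and 8021 in TCN1_OE, and KRT10 with KRT13 made up 16.1% and 15.6% of it in NC and 21.0% and 20.2% in TCN1_OE. Over the 23 type II keratins the sum was 3866 and 4274 in NC and 4121 and 4587 in TCN1_OE, of which the 4 type II members held 9.36% and 8.83%, then 14.1% and 13.1%. The sum of type II over that of type I was 0.626 in both NC libraries and 0.580 and 0.572 in TCN1_OE. The members together took 0.375% and 0.399% of all counts in NC and 0.569% and 0.612% in TCN1_OE, most of them from KRT13.

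The other keratins fell on both sides of 0. Of 8 other type I keratins tested, 0 were called, 4 had positive and 4 negative values, and the median log2 fold change was -0.04, beside 0.0016 over all genes tested. Those with the smallest p were KRT15, a basal keratin next to KRT13, at 0.50 ± 0.09, the simple epithelial KRT18 at -0.50 ± 0.09, the stress keratin KRT16 at 0.44 ± 0.15 and KRT19 at 0.21 ± 0.11. KRT15 and KRT18 missed the threshold narrowly, with an edgeR adjusted p of 0.0540 each. Of 12 other type II keratins tested, 1 was called lower, the hair keratin KRT81 at -0.999 ± 0.14 with an edgeR adjusted p of 0.0208, and 0 higher. Here 5 values were positive and 7 negative, with a median of -0.14. The value farthest from 0 in this list, named after it was seen, was that of another hair-type keratin in the other direction. KRT84 had 2 and 5 counts in NC and 17 and 21 in TCN1_OE, at 2.36 ± 0.71 with a 95% interval of 0.78 to 3.94 (edgeR adjusted p = 0.195).

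All tested keratins of the chromosome 12 cluster between KRT1 and KRT4 had positive values, a detail chosen after the values were seen. KRT77, next to KRT1, stood at 1.06 ± 0.24, from 61 and 31 counts in NC to 95 and 94 in TCN1_OE, with an edgeR adjusted p of 0.101. KRT3, next to KRT4, is the type II keratin of the cornea and stood at 0.41 ± 0.17, with an edgeR adjusted p of 0.351. KRT76, between them, is a keratin of the palate and gingiva and had 0 and 2 counts against 7 and 7, too few for the test. On chromosome 17, KRT10 and KRT13 are the 6th and 21st of 27 keratin genes in map order, and KRT13 sits beside KRT15 and then KRT19.

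**Figure D3:**
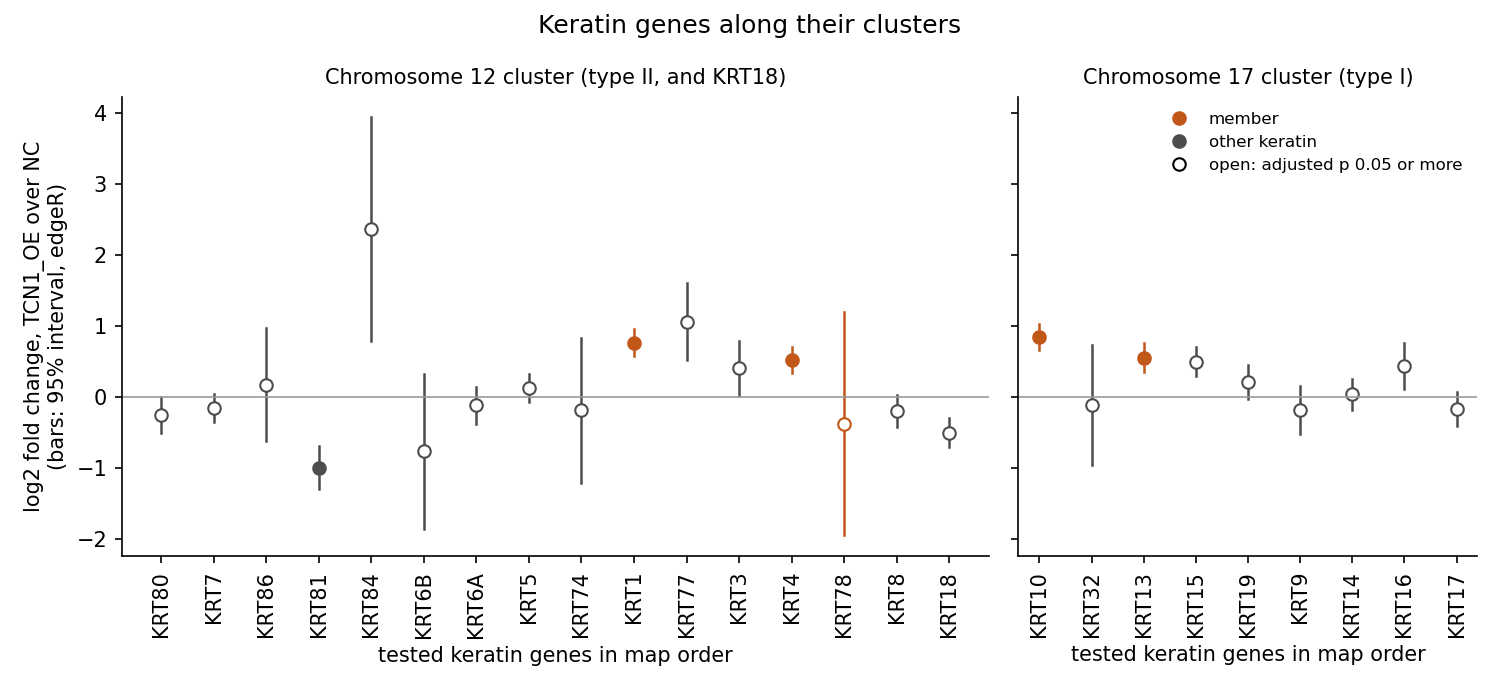
Log2 fold change with its 95% interval (edgeR) for each tested keratin in map order on chromosomes 12 and 17, with members in orange and called genes filled. KRT1, KRT4, KRT10 and KRT13 are filled above 0, KRT81 is filled at -0.999, and KRT78 has an interval that spans 0.

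Genes of the same layers gave a mixed picture. Of 14 tested companions of the epidermal suprabasal layer, 0 were called, 11 were positive and 3 negative, and the median log2 fold change was 0.23. The desmosomal cadherin DSG1 stood at 0.60 ± 0.19, the calmodulin-like CALML5 at 0.63 ± 0.21, the cornified envelope precursor IVL at 0.29 ± 0.10 and the surface protein LY6D at 0.69 ± 0.29, with edgeR adjusted p from 0.228 to 0.350. Chosen after their values were seen, the desmosomal cadherin DSC1 stood at 0.89 ± 0.44, the granular layer gene FLG at -0.02 ± 0.13 and the cornified envelope gene LORICRIN at -0.48 ± 0.50. FLG and LORICRIN are among the 3 negative values. DSC1 had 24 and 8 counts in NC and 36 and 22 in TCN1_OE. LORICRIN had 18 and 16 against 15 and 10, so both of these genes rest on few counts. The 3 companions with too few counts for the test went different ways. KRTDAP had 2 and 1 counts in NC and 7 and 7 in TCN1_OE, CALML3 had 4 and 3 against 1 and 0, and SBSN had 0 and 0 against 1 and 0.

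Of 8 tested mucosal companions, 1 was called higher and 0 lower, 7 were positive and 1 negative, and the median was 0.62. The called gene was SPRR1B, a cornified envelope precursor, which rose from 33.2 ± 2.33 to 57.6 ± 3.62 FPKM, or by 0.80 ± 0.13 on the log2 scale (edgeR adjusted p = 0.0431). Named after their values were seen, the secreted protein ECM1 stood at 0.55 ± 0.13, the raft protein MAL at 0.69 ± 0.22 and EMP1 at -0.12 ± 0.08. The mucosal companions with too few counts for the test went different ways. CRNN, the cornulin gene of the upper oesophageal layers, had 3 and 1 counts in NC and 5 and 2 in TCN1_OE. RHCG had 2 and 0 against 8 and 2, and CNFN had 11 and 2 against 11 and 5. SPRR2A had 13 and 5 against 6 and 2, and CRCT1 had 0 and 1 against 0 and 0.

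Of 23 tested regulators of the suprabasal programme, 0 were called, 19 were positive and 4 negative, and the median was 0.11. The epithelial transcription factor ELF3 stood at 0.48 ± 0.11, the receptor NOTCH3 at 0.53 ± 0.16 and GRHL3 at -0.31 ± 0.12, with edgeR adjusted p from 0.10 to 0.302. TP63, the master factor of stratified epithelia, KLF4 and CEBPB, chosen after their values were seen, stood at 0.00 ± 0.08, 0.02 ± 0.15 and 0.01 ± 0.10.

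**Figure D4:**
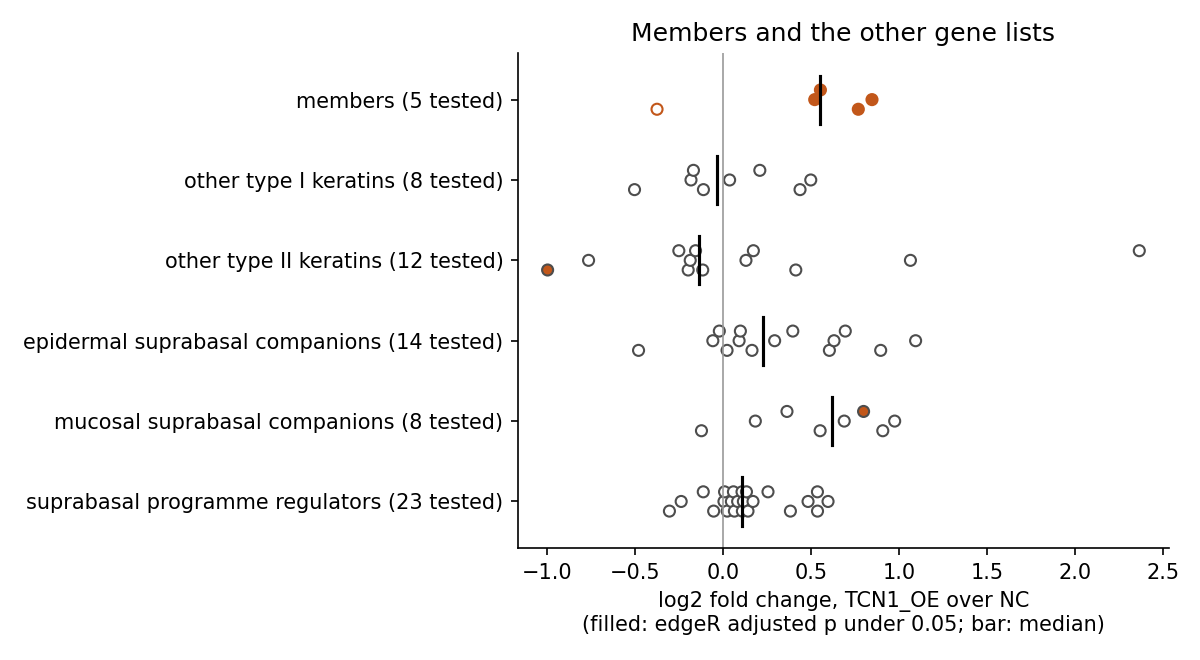
Log2 fold change of each tested gene (points) by list, with the median as a bar and called genes filled. The members have 4 filled points above 0.5, whereas the lists of other keratins scatter on both sides of 0 with medians of -0.04 and -0.14.

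Likeness was measured as the root mean square difference in log2 FPKM, each gene centred on its mean over the 4 libraries, among the 6688 tested genes whose mean reached 5 FPKM. KRT1 was the third nearest gene to KRT10, at 0.05, and KRT13 and KRT4 came at ranks 51 and 54. The 5 nearest outside the members were TXNIP, which binds thioredoxin, at 0.03, the histone gene H2BC21 at 0.03, the secreted glycoprotein OLFM4 at 0.06, C6orf226 at 0.07 and SDCBP2 at 0.07. TXNIP went from 43.2 and 40.8 FPKM in NC to 78.2 and 75.0 FPKM in TCN1_OE. To KRT4, KRT13 was the 8th nearest, at 0.04, and KRT1 and KRT10 came at ranks 186 and 501. The 5 nearest outside the members were the retinoic acid carrier CRABP2, the ubiquitin ligase MYLIP, the histone gene H3C10, the lipocalin LCN2 and the acyl-CoA synthetase ACSL1, all at 0.03. CRABP2 stood at 89.1 and 93.7 FPKM in NC and 134.0 and 138.3 FPKM in TCN1_OE. By this measure KRT10 and KRT4 were each nearer to their own partner than to the other pair, over only 4 libraries. The measure takes in the fold changes given above as well as the spread within a line. It is therefore not separate evidence of likeness between partners. The distance between KRT1 and KRT13 was not computed.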

How the data were processed

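PolyA RNA of 4 libraries was analysed, 2 per line, grouped and numbered by their titles. The submitters' processing notes name HISAT2, HTSeq 0.13.5 and GRCh38, without their settings. The sources used here do not give the annotation release, or how strand and multi-mapping reads were handled. The authors deposited a raw count and an FPKM value per gene, per the file headers. The deposited FPKM follows from the count and library total with a whole gene length in 100% of values above 0 (tolerance 1e-04 bp). That length equals the GENCODE release 29 exon length for KRT1 (2488 bp) but not for KRT4 (2877 against 3312 bp), so the releases differ.

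Counts were tested with edgeR 4.0.16 (R 4.3.3), TMM factors, robust quasi-likelihood, group as the only term, and filterByExpr with a minimum count of 10; Benjamini-Hochberg adjustment ran over all 15113 genes with a threshold of 0.05, and the test was checked on simulated counts. SE is the log2 fold change over the square root of F. Alternatives used other scalings and filters, DESeq2 1.42.0 and limma 3.58.1 on log2(FPKM + pseudocount), the replicate block, and each library left out. Ratios were tested by exact permutation. Counts of the libraries of a line differed by more than sampling noise, with a chi-square per degree of freedom of 7.55 in NC and 7.65 in TCN1_OE, and each was kept as a replicate. Between the lines it was 11.2 for the libraries numbered 1 and 9.29 for those numbered 2. Intervals on counts cover counting error only, since these libraries carried no stated molecular identifiers and their reads may repeat molecules.

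The members, gene lists and rules were chosen with earlier results of these data known. Named were all members, KRT5, KRT14 and TCN1, called genes of each list or, with none called, the 4 with the smallest p, and the 5 genes most like KRT10 and KRT4; 1 gene this rule names is not reported here.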

Additional observations from a re-analysis of the deposited data

How the results depend on the processing

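The rises of KRT1, KRT10, KRT4 and KRT13 kept their direction under the 14 alternatives run and stayed called under 11, the exceptions being limma with its 3 pseudocounts. Limma on log2(FPKM + 0.5), + 0.1 and + 1 called 0 members and gave log2 fold changes of 0.77, 0.77 and 0.77 for KRT1, 0.85, 0.85 and 0.84 for KRT10, 0.52, 0.52 and 0.52 for KRT4, and 0.55, 0.55 and 0.55 for KRT13; the cause was not tested. With 1 library left out the 4 stayed called, at 0.72 to 0.81 for KRT1, 0.83 to 0.85 for KRT10, 0.47 to 0.57 for KRT4 and 0.46 to 0.63 for KRT13. KRT78 ran from -1.97 to 0.30 and turned positive without TCN1_OE replicate 2. The log2 ratio of pooled KRT2 counts ran from -0.16 without NC replicate 2 to 1.37 without NC replicate 1, within its counting interval. KRT2 entered a model only without a filter on low counts, KRT78 was too low for the filter at 1 FPKM, and DESeq2 gave KRT78 no adjusted p.

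Over all genes, 43 were called higher and 32 lower, against 69 and 63 with library totals alone, 78 and 53 with upper-quartile factors, 110 and 113 with DESeq2, 200 and 275 without a filter, 14 lower with a mean of at least 1 FPKM, and 1 and 0 with limma at each pseudocount. Leaving out 1 library gave 104 to 188 higher and 106 to 142 lower. With the replicate number as a block, 1216 were called higher and 1655 lower, and the same 4 members were called. Why the block called more genes was not tested. It leaves little from which to estimate spread, so the calls of the 4 members under it add little. Deviations of same-numbered libraries correlated at 0.23 over 14889 genes, but with 2 numbers this does not show pairing. Under 10 counts, as in KRT2, depth leaves a difference of several-fold undetectable.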
